A study of Mus musculus with 12 samples.

Results

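Tmem119, Selplg, Adgrg1, Ecscr, Cd34, Sparc, Olfml3, Cst3, Crybb1 and Fscn1 are 10 genes, of 31054 features listed in the deposited matrices, that adult microglia transcribe in the healthy brain. They were taken by symbol as a set of microglial surface and secreted products, and all 10 were found. The name of the set covered 8 of its genes. Tmem119, Selplg, Adgrg1, Ecscr and Cd34 encode the 5 membrane proteins, and Sparc, Olfml3 and Cst3 the 3 secreted proteins. Crybb1, a beta-crystallin, and Fscn1, an actin-bundling protein, are the 2 whose products stay inside the cell, and they were described apart.

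Microglia arise from the yolk sac, settle in the brain before birth and renew themselves there. In their resting, or homeostatic, state they keep a set of transcripts that signals from brain tissue maintain, among them TGF-beta. Macrophages that enter the adult brain from the marrow take on part of that set, and Tmem119 is widely used as a marker to tell resident microglia from such cells.

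The study asked how cells that derive from transplanted hematopoietic stem and progenitor cells (HSPCs), termed microglia-like cells (MLCs), compare with endogenous microglia, and whether the route of dosing matters. Lineage-negative HSPCs from the marrow of male C57BL/6J mice were transduced with a lentiviral vector that carries GFP (LVV.GFP). They were given i.v. or i.c.v. to C57BL/6J recipients conditioned with busulfan, and per the methods of the study the recipients later also received marrow cells without the vector i.v. Brain cells were sorted as CD45+ CD11b+ CX3CR1+ and split by GFP, to part cells that carried the vector (GFP+) from cells that were mostly endogenous microglia (GFP-). The split was not complete, as a GFP- cell can stem from donor marrow that was not transduced or does not express GFP, and some cells of the GFP+ sort held Xist in female recipients although the donors were male. One female and 1 male recipient per route gave a GFP+ and a GFP- library each, 4 GFP+ and 4 GFP- libraries in all. Mice were studied 12 to 13 months after dosing, while their labels state 22 to 28 weeks as the age. Single libraries of sorted microglia, astrocytes, neurons and white blood cells came from an untreated mouse, called naive, with 8 to 12 weeks as the labelled age. These 4 libraries had no replicate and shared that animal, which was younger and was not conditioned.

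After barcodes with fewer than 200 genes or more than 10% mitochondrial UMIs were left out, the treated libraries held 2266 to 4555 cells and 4970758 to 16514669 UMIs. The i.v. female GFP+ library stood apart, with a median of 3499 UMIs per cell against 842 to 1307.5 in the other 7. Shares of cells were therefore compared at 500 UMIs per cell, which every kept cell of the treated libraries reached. In naive microglia 482 of 1274 kept cells did. No pair of the 12 libraries shared more than 8 barcodes. The library labelled as naive neurons did not match its label, since the summed level of 8 oligodendrocyte markers was 52653 CPM (counts scaled to the same total in each library) there and that of 8 neuron markers 114 CPM, so it is called the neuron sort. Levels are CPM of the UMIs summed over the kept cells of a library, so fewer cells that transcribe a gene and less RNA per cell cannot be told apart in them.

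In GRCm38 (mm10) the genes lie on 7 chromosomes. Tmem119 at chr5:113793729-113800516 and Selplg at chr5:113818536-113832644 are neighbours on the minus strand, 18 kb apart. Crybb1 at chr5:112255815-112269585 and Fscn1 at chr5:142960343-142973185 lie elsewhere on the same chromosome. The others are Adgrg1 at chr8:94974751-95014217, Cd34 at chr1:194938819-194961279, Sparc at chr11:55394500-55423183, Olfml3 at chr3:103722222-103738001 and Cst3 at chr2:148871722-148875692. No annotated gene overlaps any of them on the same strand. Ecscr and Cd34 each have 1 overlapping gene on the other strand.

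Promoters of the set were searched for 3 short motifs on both strands. These were GAGGAA, the purine-rich core bound by ETS factors such as PU.1, TATAAA, the TATA box, and TGACTCA, the AP-1 site. RefSeq promoters of GRCm38.p6, 250 bases before to 50 bases after a start, were at hand for 7 of the 10 genes, with 2 starts for Adgrg1. Those of Tmem119, Selplg and Ecscr were not at hand. GAGGAA stood in the Cst3 promoter, against 28.3% of all 32851 promoters. TATAAA stood in those of Crybb1 and Fscn1, against 13.6% of all. TGACTCA stood in the downstream Adgrg1 promoter at 2 places, against 5.2% of all, and none of the 3 motifs shared bases with another. These 4 promoters are printed, 5′ to 3′ along the gene, with the motifs in capitals on whichever strand they were found. They stand for the gene that departed from the rest between the sorts (Crybb1, plus strand, chr5:112255570-112255869), the gene with the smallest p (Fscn1, plus strand, chr5:142960105-142960404), an adhesion receptor (Adgrg1, plus strand, chr8:94984149-94984448) and the gene detected in the most cells (Cst3, minus strand, chr2:148875463-148875762).
Crybb1: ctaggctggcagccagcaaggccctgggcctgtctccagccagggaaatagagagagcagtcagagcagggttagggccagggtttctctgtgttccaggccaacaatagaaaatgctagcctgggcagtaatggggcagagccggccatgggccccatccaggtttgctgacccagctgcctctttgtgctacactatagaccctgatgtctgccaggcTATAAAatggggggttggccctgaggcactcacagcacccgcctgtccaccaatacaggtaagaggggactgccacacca
Fscn1: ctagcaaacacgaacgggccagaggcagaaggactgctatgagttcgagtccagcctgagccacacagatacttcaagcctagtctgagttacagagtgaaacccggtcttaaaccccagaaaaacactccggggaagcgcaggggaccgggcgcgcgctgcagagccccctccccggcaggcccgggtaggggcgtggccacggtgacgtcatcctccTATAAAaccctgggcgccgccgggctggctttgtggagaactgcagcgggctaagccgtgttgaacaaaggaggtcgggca
Adgrg1: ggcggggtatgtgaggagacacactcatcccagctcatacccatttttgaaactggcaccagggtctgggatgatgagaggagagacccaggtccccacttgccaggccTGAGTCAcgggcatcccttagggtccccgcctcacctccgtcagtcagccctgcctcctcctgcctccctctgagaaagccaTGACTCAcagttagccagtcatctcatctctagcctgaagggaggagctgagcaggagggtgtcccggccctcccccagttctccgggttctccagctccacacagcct
Cst3: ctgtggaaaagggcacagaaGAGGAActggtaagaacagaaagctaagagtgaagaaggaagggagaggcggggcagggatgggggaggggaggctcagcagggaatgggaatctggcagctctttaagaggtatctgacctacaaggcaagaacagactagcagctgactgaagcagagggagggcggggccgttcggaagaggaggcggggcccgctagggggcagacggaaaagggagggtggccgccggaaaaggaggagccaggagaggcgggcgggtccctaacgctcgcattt
The TATAAA of Crybb1 began 30 bases before its start and that of Fscn1 31 bases before. The promoters of Cd34, Sparc and Olfml3 held none of the 3 strings in this window, and the matches describe letters only.

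GFP+ cells held less of most of these transcripts than GFP- cells of the same mice. In edgeR's quasi-likelihood test on the UMI sums of the 8 treated libraries, 8 of the 10 genes were lower in GFP+ cells, none was higher, and Cst3 and Crybb1 did not pass. Among all 11756 genes tested, 32.5% passed in either direction and 15.9% were lower in GFP+ cells. The median log2 fold change was -1.71 over the 5 membrane genes and -0.65 over the 3 secreted ones, against 0.01 over all genes. On plain CPM, 9 of the 10 genes were lower in each GFP+ library than in any GFP- library, against 32.6% of the genes tested. Scaling by library size alone moved the median of all genes to -0.27, so that plain CPM makes GFP+ cells look lower throughout by about that amount, and the fold changes given are those of the TMM-scaled test.

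**Figure D1:**
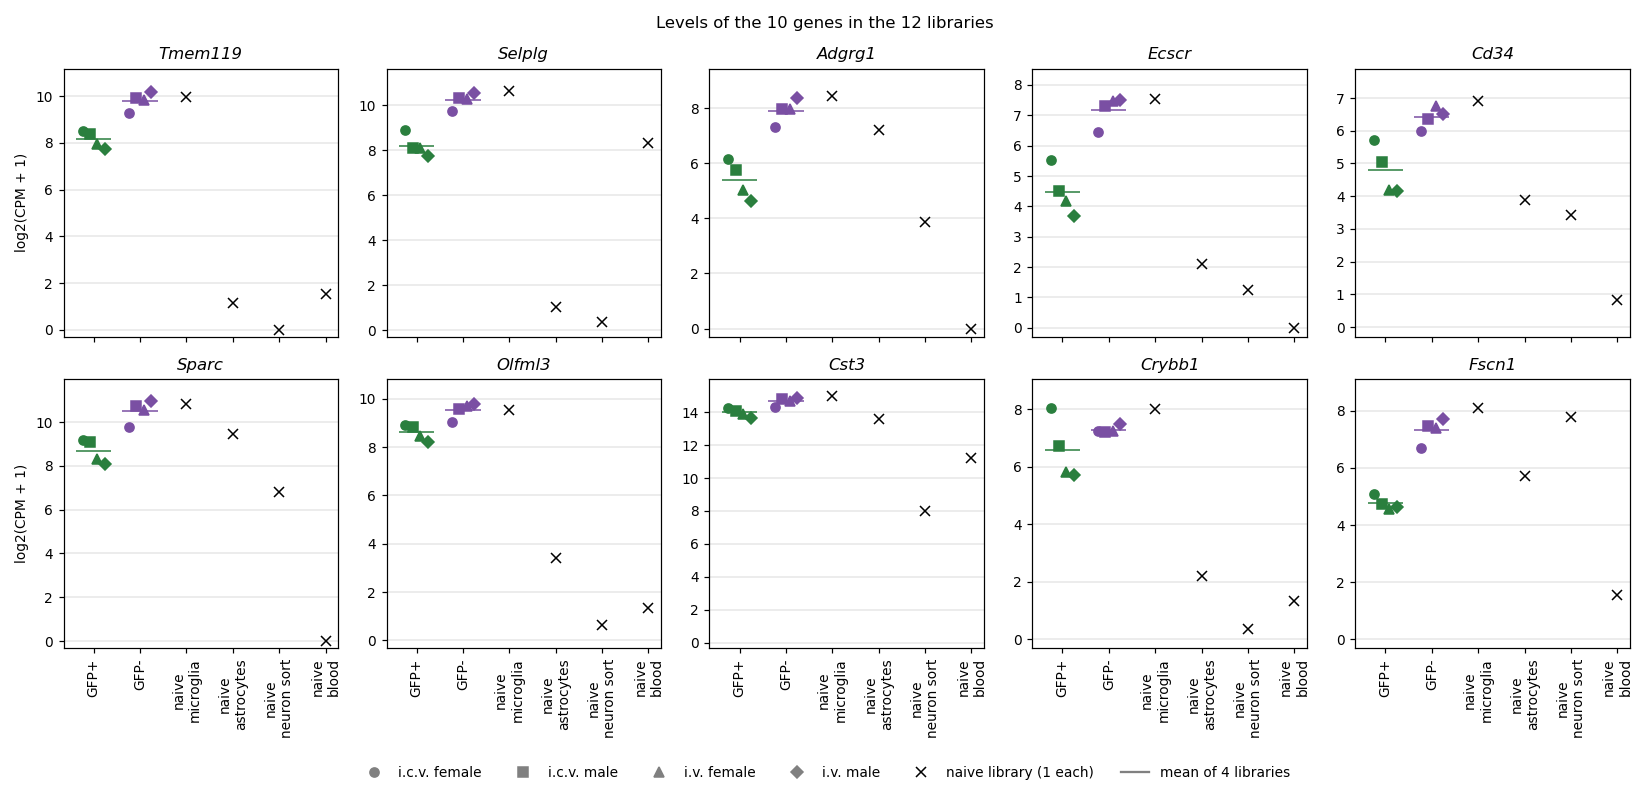
Level of each of the 10 genes, as log2(CPM + 1), in the 4 GFP+ libraries (green), the 4 GFP- libraries (purple) and the 4 naive libraries (crosses, 1 each), with marker shape for route and sex and a line at the mean of 4. Green points lie below purple points in each panel other than Crybb1, where the i.c.v. female GFP+ library at 262 CPM is above the GFP- libraries.

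Tmem119, a single-pass membrane protein of unsettled function, was at 369, 337, 244 and 212 CPM in the GFP+ libraries of the i.c.v. female, i.c.v. male, i.v. female and i.v. male. In the GFP- libraries of the same mice, in the same order, it was at 615, 969, 901 and 1162 CPM, and naive microglia held 1004 CPM. The sorts did not overlap, the i.c.v. mice were the higher of the GFP+ libraries, and the lowest GFP- library was that of the i.c.v. female. The log2 fold change of GFP+ against GFP- was -1.37 ± 0.20 (SE, adjusted p = 0.00203). At 500 UMIs per cell, 12.5% ± 2.56 of GFP+ cells and 38.3% ± 6.54 of GFP- cells held a Tmem119 UMI (SD, n = 4). None of 334 naive blood cells did, which allows a share of up to 0.898% at that depth. At the full depth of these cells, with a median of 6875 UMIs, 5 of 341 held 1 (1.47%, exact binomial 95% interval 0.478% to 3.39%). How much of the share in GFP+ cells came from free RNA was not tested.

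Selplg encodes PSGL-1, the mucin that carries leukocytes along selectins, and it was the only membrane gene of the 5 with a clear level in blood cells, at 324 CPM. GFP+ libraries held 478, 269, 277 and 212 CPM, and GFP- libraries 863, 1278, 1253 and 1515 CPM, in the order of mice given for Tmem119. The 3 lower GFP+ libraries were thus below the naive blood library, and all 4 were below each GFP- library (log2 fold change -1.71 ± 0.23, adjusted p = 0.00141). The share of cells with a Selplg UMI was 12.1% ± 3.82 in GFP+ cells, 44.4% ± 5.94 in GFP- cells, 60.0% in naive microglia and 14.4% in naive blood cells.

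Within each mouse the GFP+ over GFP- ratio of Selplg was below that of Tmem119. It was 0.600 and 0.554 in the i.c.v. female, 0.348 and 0.211 in the i.c.v. male, 0.271 and 0.221 in the i.v. female, and 0.183 and 0.140 in the i.v. male, for Tmem119 and Selplg respectively. The ratios of the pair were farthest apart in the i.c.v. male, where that of Sparc, on chromosome 11, was 0.321. The protein-coding genes on both sides of the pair did not pass the same test. Iscu, an iron-sulfur cluster scaffold 15.4 kb from Tmem119, was at a log2 fold change of 0.09 ± 0.09 (adjusted p = 0.481), and Coro1c, an actin-binding coronin 9.8 kb from Selplg, at 0.24 ± 0.12 (adjusted p = 0.147).

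Adgrg1 (GPR56) is an adhesion G-protein-coupled receptor that binds collagen III and transglutaminase. It was at 69.4, 52.9, 31.3 and 23.5 CPM in GFP+ libraries and at 156, 250, 249 and 329 CPM in GFP- libraries. The highest GFP+ library lay below the lowest GFP- library, and blood cells held 0 UMIs, below a floor of 1.14 CPM for 3 UMIs. The log2 fold change was -2.20 ± 0.31 (adjusted p = 0.00169). Adgrg1 was not limited to microglia among the naive libraries, since the astrocyte library held 147 CPM.

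Ecscr, an endothelial cell-surface protein, and Cd34, a sialomucin of endothelium and of early hematopoietic cells, are better known outside microglia. Ecscr, at chr18:35713086-35722356, was at 45.6, 21.9, 17.0 and 12.0 CPM in GFP+ libraries and at 85.9, 156, 178 and 180 CPM in GFP- libraries. Naive microglia held 185 CPM, the astrocyte library 3.33 CPM, and blood cells no UMI. The sorts did not overlap (log2 fold change -2.37 ± 0.37, adjusted p = 0.00258).

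Cd34 was at 52.0, 32.3, 17.4 and 16.8 CPM in GFP+ libraries and at 62.9, 81.5, 108 and 90.0 CPM in GFP- libraries. The i.c.v. female came nearest to an overlap, with a GFP+ over GFP- ratio of 0.826, while the other 3 mice had ratios of 0.396, 0.161 and 0.187. GFP+ against GFP- gave a log2 fold change of -1.27 ± 0.31 (adjusted p = 0.0149). Naive microglia held 118 CPM and naive blood cells 0.760 CPM. Of 8 other genes of early hematopoietic cells, 3 were high enough to be tested, and Kit and Gata2 were not among them. Hlf, at -2.58 ± 0.50 (adjusted p = 0.00605), and Meis1, at -1.68 ± 0.31 (0.00511), were lower in GFP+ cells, as were 15.9% of all genes tested. Flt3, at 1.66 ± 0.81, did not pass (0.141). Hlf was not limited to early hematopoietic cells, with 114 CPM in naive astrocytes and 19.2 CPM in naive microglia.

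Of 10 endothelial markers, 7 were tested, and 2 of them were lower in GFP+ cells like Ecscr and Cd34. These were Pecam1, an adhesion molecule, at -1.68 ± 0.31 (adjusted p = 0.00524), and Kdr, a VEGF receptor, at -1.02 ± 0.21 (0.00807). Cldn5, the tight-junction claudin of brain endothelium, was at -0.67 ± 0.50 (0.323). The summed level of the 10 was 20.3 to 41.4 CPM in GFP+ and 39.0 to 91.6 CPM in GFP- libraries, which overlapped, with at least 9 of the 10 detected in each. Tie1, an endothelial receptor kinase, did not exceed 0.514 CPM in any of the 8. Among cells in which none of these 10 transcripts was detected, which at these levels does not show that a cell is not endothelial, 0.806% ± 0.381 of GFP+ and 7.04% ± 1.44 of GFP- cells held Ecscr at 500 UMIs per cell, and 1.52% ± 0.921 and 4.71% ± 0.477 held Cd34. The part of endothelial cells in these differences was not tested further.

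Sparc, a secreted matricellular glycoprotein that binds collagen and calcium, was at 588, 550, 312 and 270 CPM in GFP+ libraries. GFP- libraries held 873, 1711, 1520 and 1974 CPM. The i.c.v. GFP+ libraries were the higher of the GFP+ libraries and yet below every GFP- library. The log2 fold change was -1.54 ± 0.28 (adjusted p = 0.00508), and 13.8% ± 4.02 of GFP+ and 46.8% ± 9.80 of GFP- cells held a UMI at equal depth. The naive astrocyte library held 700 CPM, more than any GFP+ library, and blood cells held no UMI. The summed level of 8 astrocyte markers was 22.5 to 49.0 CPM in GFP+ and 23.0 to 85.1 CPM in GFP- libraries, against 10510 CPM in the astrocyte library, and their part in the Sparc difference was not tested by itself. With cells that held at least 2 markers of an unrelated type (endothelium, mural cells, astrocytes, oligodendrocytes, neurons, neutrophils, lymphocytes and others) left out, the log2 fold change of Sparc was -1.55 ± 0.26 (adjusted p = 0.00247).

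Olfml3, a secreted olfactomedin-domain protein, differed less. It was at 481, 448, 353 and 298 CPM in GFP+ libraries and at 530, 770, 826 and 889 CPM in GFP- libraries, and naive microglia held 739 CPM. The sorts did not overlap, but the i.c.v. female had a ratio of 0.908 between them. Between the sorts the log2 fold change was -0.65 ± 0.17 (adjusted p = 0.0181). With mouse as a block in the fit the adjusted p was 0.0542, and it was also above 0.05 without the i.v. male GFP- library (0.0596) or the i.c.v. male one (0.0518). At 500 UMIs, 14.1% ± 2.66 of GFP+ and 29.4% ± 4.11 of GFP- cells held a UMI.

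Cst3 encodes cystatin C, a secreted inhibitor of cysteine cathepsins. GFP+ libraries held 19829, 17166, 15401 and 13085 CPM and GFP- libraries 20279, 28701, 26713 and 30324 CPM. The groups did not overlap on this scale, but the i.c.v. female was at nearly the same level in both sorts, with a ratio of 0.978. The log2 fold change was -0.41 ± 0.16 with an adjusted p of 0.0779, which missed the threshold of 0.05. By library size alone it was -0.70 (adjusted p = 0.0118), and DESeq2 gave -0.42 (adjusted p = 0.0135). Nearly all GFP- cells, 99.5% ± 0.208, held a Cst3 UMI at 500 UMIs per cell. In GFP+ cells the share was 86.5% ± 6.29. Cst3 was also widespread outside microglia, with a UMI in 85.7% of naive astrocytes and in 50% of naive blood cells, and 2373 CPM in the latter.

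Crybb1 behaved differently from the other genes. It was at 262 and 105 CPM in the GFP+ libraries of the i.c.v. female and male and at 55.9 and 51.3 CPM in those of the i.v. mice. The GFP- libraries lay close together at 149, 146, 151 and 180 CPM. By CPM the i.c.v. female GFP+ library was thus above the GFP- libraries and at the level of naive microglia (258 CPM), whereas the other 3 GFP+ libraries were below them. At 500 UMIs per cell, 3.70% ± 2.27 of GFP+ and 6.64% ± 1.28 of GFP- cells held a Crybb1 UMI. The sorts overlapped in this share, but it was lower in GFP+ cells in 4 of 4 mice, the i.c.v. female included. Why the 2 measures differed in that mouse was not tested. The log2 fold change between the sorts was -0.16 ± 0.43 (adjusted p = 0.802). Without the i.c.v. female GFP+ library it was -0.85 (adjusted p = 0.0214), so that 1 library decided whether Crybb1 passed. Blood cells and astrocytes held 1.52 and 3.54 CPM.

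Fscn1 had the smallest adjusted p of the set. GFP+ libraries held 33.3, 25.4, 22.8 and 23.8 CPM, a narrow range, and GFP- libraries 102, 177, 166 and 209 CPM. Each GFP+ library was far below the lowest GFP- library (log2 fold change -2.35 ± 0.19, adjusted p = 0.000155). The share of cells with a UMI was 1.05% ± 0.202 in GFP+ and 8.02% ± 1.64 in GFP- cells. The neuron sort, rich in oligodendrocyte markers, held 219 CPM and the naive astrocytes 51.2 CPM. The summed oligodendrocyte markers were at 64.1 to 142 CPM in GFP+ and 89.1 to 354 CPM in GFP- libraries, and with cells of other types left out, as for Sparc, they were at 49.4 to 65.1 and 68.0 to 74.8 CPM. The log2 fold change of Fscn1 was then -2.42 ± 0.18 (adjusted p = 4.79e-05).

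**Figure D2:**
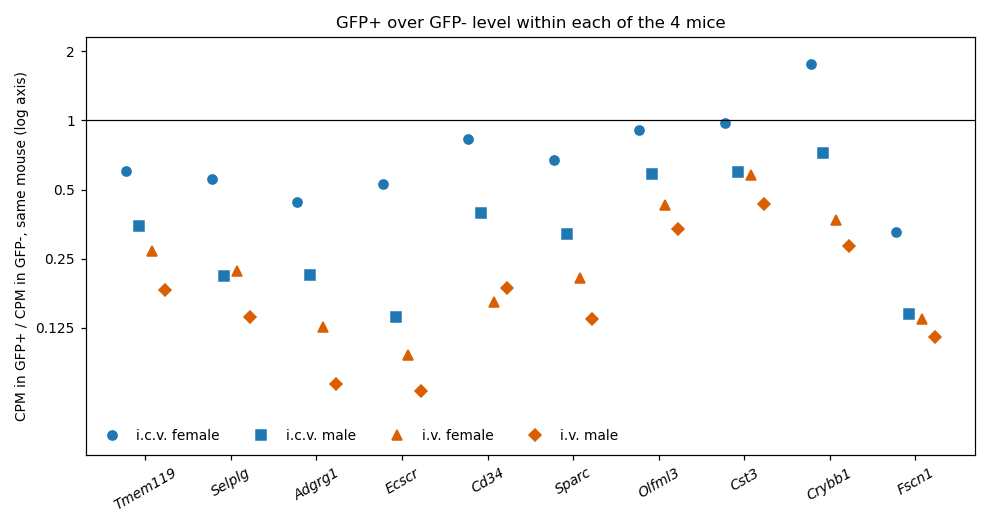
Ratio of the CPM in GFP+ cells to the CPM in GFP- cells of the same mouse for each of the 10 genes, on a log axis with a line at 1 (equal levels). Blue marks i.c.v. and orange i.v. mice. The i.c.v. female has the highest ratio for each gene, from 0.326 for Fscn1 to 1.76 for Crybb1, and the i.v. male has ratios from 0.0663 for Ecscr to 0.431 for Cst3.

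On plain CPM the difference between the sorts was seen in each mouse for 9 of the 10 genes, and for Crybb1 in 3 of 4. These 9 are the genes whose sorts did not overlap, which by itself makes a gene lower in each mouse. Of the genes tested, 32.6% did not overlap in that direction. The share of all genes that were lower in each mouse was not computed. In the i.c.v. female the ratios of Olfml3 and Cst3 were near 1, at 0.908 and 0.978. The TMM factors of that mouse were 0.964 for GFP+ and 1.05 for GFP- cells, so the direction of Cst3 there depended on the scale. By the ratio of CPM the deficit of GFP+ cells was smallest in the i.c.v. female for each gene. In the i.c.v. male it was smaller than in both i.v. mice for each gene other than Selplg, whose ratio was 0.211 there and 0.221 in the i.v. female. With the 4 libraries of the i.v. mice alone, all 10 genes were lower in GFP+ cells, Cst3 and Crybb1 included (adjusted p = 0.0215 and 0.00449), against 12.3% of all genes. With those of the i.c.v. mice alone 5 of the 10 were lower, against 6.31%. In these, Cd34 (adjusted p = 0.128), Sparc (0.0801) and Olfml3 (0.298) missed the threshold, and Crybb1 was at 0.47 (0.454). Each of these fits rested on 2 mice, and a call in 1 route and not in the other does not show that the routes differ. The exact permutation p for each of the 9 genes without overlap on CPM was 0.0286 (two-sided), the smallest that 4 against 4 libraries can give, and that for Crybb1 was 0.486.

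Among GFP+ cells, the i.v. libraries were at lower levels than the i.c.v. libraries for most of the set. In the test of route within GFP+ cells, 2 of the 10 genes passed, against 2.78% of 12540 genes. Cd34 fell from 42.1 ± 13.9 CPM after i.c.v. to 17.1 ± 0.395 CPM after i.v. dosing (SD, n = 2), a log2 fold change of -1.18 ± 0.22 (adjusted p = 0.0308). Crybb1 fell from 184 ± 111 to 53.6 ± 3.27 CPM, at -1.65 ± 0.34 (adjusted p = 0.0405). The fold changes of the other 8 were negative too, from -0.22 ± 0.25 for Fscn1 to -1.08 ± 0.36 for Ecscr, and none passed. For both genes the 2 i.v. libraries agreed closely and the 2 i.c.v. libraries did not.

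Markers of other cells moved with route in the same GFP+ libraries. Of 8 neutrophil markers 7 were higher after i.v. dosing and of 8 monocyte markers 5. The neutrophil markers, such as S100a8 and S100a9, summed to 1623 and 3260 CPM in the i.v. female and male and to 0 and 0.367 CPM in the i.c.v. mice. The monocyte markers summed to 464 and 390 CPM against 2.94 and 4.95 CPM. Medians of UMIs per cell were 3499 and 1307.5 in the i.v. and 1058 and 1060.5 in the i.c.v. GFP+ libraries. Markers of unrelated types were looked for at that full depth, so their shares were not at equal depth. Cells with at least 2 markers of an unrelated type were 8.37% and 6.13% of the i.v. and 3.93% and 2.998% of the i.c.v. libraries. Without those cells the neutrophil markers were at no more than 7.75 CPM in any GFP+ library, while the monocyte markers, which were not used to leave cells out, remained at 400.4 and 307 CPM in the i.v. libraries. Cd34 was then at -1.15 ± 0.23 (adjusted p = 0.0354) and Crybb1 at -1.55 ± 0.32 (0.0443), the 2 genes of the set that passed, against 2.1% of all genes. The part of monocytes was not tested.

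These 2 calls rested on single libraries. Leaving out any 1 of the 8 libraries left 0 to 2 genes called. None of the 10 passed when the library left out was the i.c.v. female GFP+ library, either i.v. GFP+ library or either i.c.v. GFP- library. Each route had 1 female and 1 male, so the test had 2 mice on each side. DESeq2 called 5 of the 10, against 4.19% of all genes, and 1 passed when the 4 GFP+ libraries were fitted alone, against 1.96%.

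**Figure D3:**
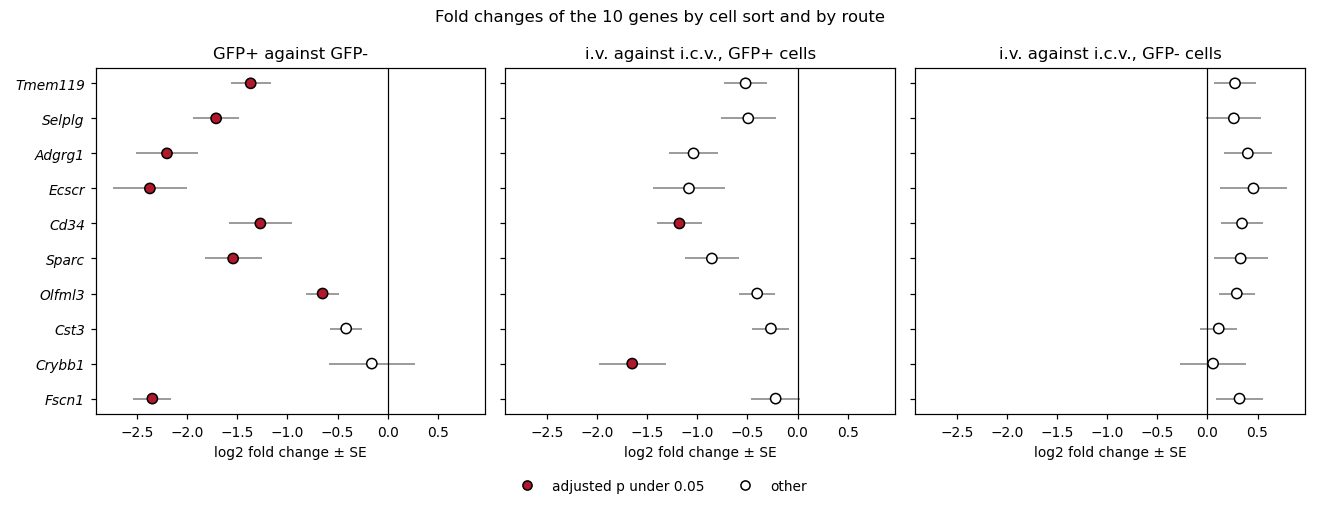
Log2 fold change with its standard error for each gene, for GFP+ against GFP- cells and for i.v. against i.c.v. mice in GFP+ and in GFP- cells, from edgeR (filled points, adjusted p under 0.05). In GFP+ cells the 10 points for route lie between -0.22 and -1.65, and in GFP- cells between 0.06 and 0.46 with none filled.

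In GFP- cells none of the 10 genes passed for route, nor did any of the 12540 genes tested by edgeR (0%), of which 1063 had an unadjusted p under 0.05. The fold changes of the set were from 0.06 ± 0.33 for Crybb1 to 0.46 ± 0.34 for Ecscr, and all 10 were positive. The i.c.v. female GFP- library was the lowest of the 4 for 9 genes, and for Crybb1 that of the i.c.v. male was. The i.c.v. female library also held the most neutrophil markers, which summed to 5957 CPM there and to 55.6 to 976 CPM in the other 3. Without cells of other types that sum was 37.1 CPM, and the fold changes of the set for route in GFP- cells were 0.03 to 0.44, none past the threshold. DESeq2 called 70 genes, none of the set.

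The difference between the routes was itself tested as an interaction of GFP status with route. Cd34 passed with -1.52 ± 0.31 (adjusted p = 0.0493), against 1.91% of 12540 genes. The other 9 were negative and did not pass, with Crybb1 at -1.71 ± 0.47 (adjusted p = 0.108) and Adgrg1 at -1.44 ± 0.34 (0.0787). Cd34 did not pass in 11 of 17 alternatives, with values from -1.19 to -1.80. With mouse as a block 2 genes passed, Cd34 and Crybb1 (-1.58, adjusted p = 0.0452), against 5.41% of all genes. Markers of other cells passed in the interaction too, 7 of 8 for neutrophils, 6 of 8 for monocytes and 5 of 8 for oligodendrocytes, all in the opposite direction to Cd34. Without cells of other types Cd34 was at -1.48 ± 0.32 and did not pass (adjusted p = 0.0657). No gene of the set passed for the sex of the recipient. In GFP+ cells edgeR called no gene at all (0% of 12540, 455 at an unadjusted p under 0.05), and in GFP- cells it called 4 genes (0.0319%), none of the set. DESeq2 called 3 and 7 genes, again none of the set.

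Counting the 10 genes cell by cell at 500 UMIs gave a picture like that of the sums, other than for Crybb1. Its share of cells was lower in GFP+ than in GFP- cells in 4 of 4 mice, whereas its CPM was higher in the i.c.v. female. A GFP+ cell held UMIs of 1.49 ± 0.214 of the genes on average, a GFP- cell of 2.99 ± 0.330 and a naive microglia of 3.50. The naive value is from the 482 of 1274 kept cells that reached 500 UMIs. Neutrophil markers summed to 9226 CPM in that naive library, and their part in its values was not tested. By library the averages were 1.66, 1.66, 1.43 and 1.21 in GFP+ cells and 2.63, 3.09, 2.85 and 3.40 in GFP- cells, in the order of mice given for Tmem119. The sorts did not overlap, and within the GFP+ sort both i.c.v. libraries were above both i.v. libraries. At least 3 of the genes were found together in 17.9%, 16.8%, 12.8% and 6.58% of GFP+ cells and in 49.7%, 64.5%, 56.9% and 73.2% of GFP- cells. In the i.v. male GFP+ library, with the lowest share, the exact binomial 95% interval was 5.59% to 7.68%, which covers counting error only. Naive microglia stood at 75.1%, the naive astrocytes at 2.27%, the neuron sort at 1.04%, and 0 of 334 blood cells held 3 of the genes.

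**Figure D4:**
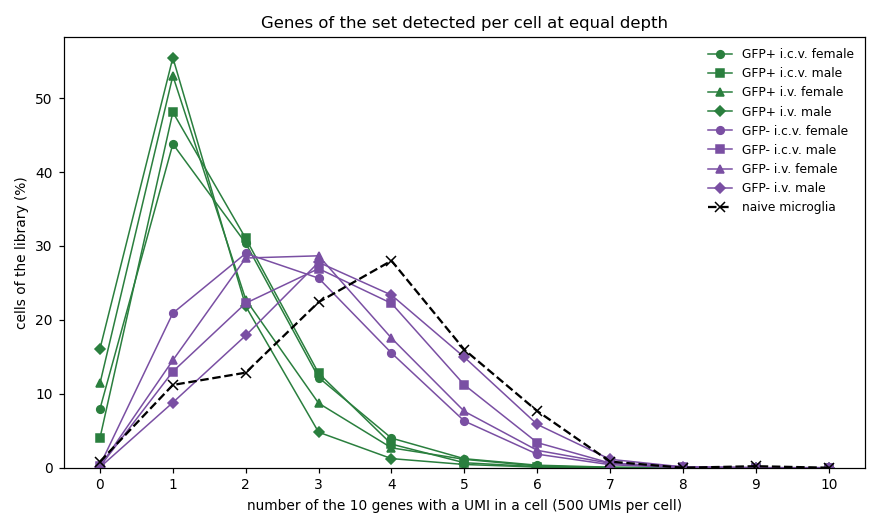
Share of cells (%) in each library by how many of the 10 genes had a UMI at 500 UMIs per cell, for GFP+ (green), GFP- (purple) and naive microglia (dashed). Green lines peak at 1 gene and purple lines at 2 or 3, with 14.2% of GFP- and 1.10% of GFP+ cells at 5 or more.

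Much of the count in GFP+ cells came from Cst3. Without it a GFP+ cell held 0.624 ± 0.160 and a GFP- cell 2.00 ± 0.328 of the other 9 genes, and 3.94% ± 1.61 and 33.9% ± 9.57 held at least 3. The transcripts did not fall on separate cells. For each pair with at least 5 cells expected by chance, the number of cells that held both was divided by the number that independent detection would give. The median of this ratio over pairs was 1.34 ± 0.147 in GFP+ libraries, over 15 to 33 pairs, and 1.13 ± 0.0386 in GFP- libraries, over all 45 pairs. In GFP+ libraries 14 to 33 pairs were above 1, and only in the i.c.v. male and the i.v. male were any below. The more cells hold a gene, the less this ratio can rise, and the genes were found in more GFP- than GFP+ cells. The medians of the sorts are thus not on a like scale. Cst3, in 99.5% of GFP- cells, held its pairs near 1 there. Without Cst3 the medians were 1.61 ± 0.243 in GFP+ and 1.15 ± 0.0410 in GFP- libraries. Sparc with Selplg stood at 1.75 ± 0.338 in GFP+ and at 1.13 in GFP- cells, Sparc with Olfml3 at 1.74 ± 0.234 and 1.15, and Tmem119 with Selplg at 1.47 ± 0.310 and 1.14. A GFP+ cell with a UMI of 1 of these genes was thus more often than independent detection gives a cell with another.

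GFP+ cells were also divided by single transcripts, while the 10 genes were counted at 500 UMIs. P2ry12 and Ms4a7 were looked for in those same 500 UMIs, so that a cell without them may hold them at its full depth. EGFP was looked for at the full depth of a cell. Cells with P2ry12, the purinergic receptor of homeostatic microglia, held more of the 10 genes. Of GFP+ cells with it 24.2% ± 6.24 held at least 3 of them, against 11.6% ± 4.84 of GFP+ cells without it, and the share was higher in 4 of 4 libraries. In GFP- cells the shares were 69.8% ± 8.73 and 53.5% ± 9.15. In each mouse the share in GFP+ cells with P2ry12 was below that in GFP- cells without it. For the transgene transcript the libraries went in different directions. At least 3 of the genes were found in 11.4% of cells with an EGFP UMI and 6.21% of cells without in the i.v. male, and in 21.3% and 17.5% in the i.c.v. female. The order was the opposite in the i.c.v. male (11.4% and 17.1%) and the i.v. female (11.4% and 13.0%). Cells with an EGFP UMI were deeper before thinning in each library, such as 7731 against 970 UMIs in the i.c.v. female. Cells with Ms4a7, a membrane gene of border and marrow-derived macrophages, held at least 3 of the genes in 11.1% ± 3.33 of GFP+ and 37.6% ± 12.1 of GFP- cells. Cells without it did so in 14.4% ± 5.75 and 62.6% ± 9.88. The 8 border macrophage markers summed to 2021 to 2669 CPM in GFP+ and 881 to 1591 CPM in GFP- libraries, and their part in the difference of the set was not tested.

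In female recipients Y-linked transcripts mark cells of the male donors. In the i.v. female GFP+ library, 1670 cells held a Y-linked UMI and no Xist UMI, and 88 held Xist and no Y-linked UMI. Of the former 11.3% held at least 3 of the 10 genes at 500 UMIs, and of the latter 39.8%, with Tmem119 in 10.7% and 31.8%. In the i.c.v. female the shares with at least 3 were 18.4% of 1294 and 18.5% of 27 cells. In the GFP- libraries, cells with Y-linked transcripts only were few, 40 after i.v. and 47 after i.c.v. dosing, and 20% and 21.3% of them held at least 3 of the genes. Cells with Xist only did so in 57.0% of 2338 and 41.4% of 2852. By that share the cells with Y-linked transcripts of the GFP- sort lay nearer to those of the GFP+ sort in both mice, but single genes went either way. Cst3 was in all 40 and all 47, and in 88.2% and 89.7% of the GFP+ cells with Y-linked transcripts only. The median depth before thinning was 5717 UMIs in the 1670 cells and 2298.5 in the 88, and these shares describe cells of 2 mice with no test.

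Across libraries the genes of the set followed each other. Over the 8 treated libraries the highest Pearson r of log2(CPM + 1) for Tmem119 was with Adgrg1 (0.996), for Selplg with Ecscr (0.994), for Olfml3 with Sparc (0.991) and for Fscn1 with Selplg (0.982). Crybb1 was the gene that each of the other 9 followed least, at 0.568 to 0.827. These points share sort, route and mouse, so the values describe the 8 libraries only. Over all 12 libraries Ecscr and Cd34 were each other's closest (0.964), as were Tmem119 and Olfml3 (0.985), and Fscn1, which was high in the neuron sort, was the least like 6 of the others. Of 9659 genes with at least 20 CPM in a library, the 5 outside the set closest to its mean z-score over the 12 libraries were Cmtm4 (r = 0.989), Pald1 (0.986), Nckap5l (0.986), Tspan18 (0.984) and Col27a1 (0.984). Cmtm4 and Tspan18 encode membrane proteins and Col27a1 a fibrillar collagen.

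Other homeostatic genes of microglia split as well. Of 18, such as receptors, enzymes and transcription factors, 9 were lower in GFP+ cells, against 15.9% of all genes. None was higher, and the median log2 fold change was -0.51. Sall1, the transcription factor that maintains microglial identity, was at -3.76 ± 0.38 (adjusted p = 0.000405) and Slc2a5, a fructose transporter, at -3.68 ± 0.40 (0.000613). P2ry12 was at -1.53 ± 0.23 (0.00218), close to Sparc, and its relatives P2ry13 at -0.76 ± 0.17 and Gpr34 at -0.94 ± 0.17 were lower as well. The other 4 called were Tgfbr1, the TGF-beta receptor, Mef2a, a transcription factor, Itgb5, an integrin chain, and Golm1, a Golgi membrane protein. Siglech, Csf1r, Cx3cr1, Fcrls, Trem2, Rnase4, Lpcat2 and Mef2c were among those that did not pass. Rnase4 (0.53 ± 0.19), Fcrls (0.31 ± 0.21) and Trem2 (0.13 ± 0.13) had positive fold changes, and the rest of the 18 negative ones. In the set itself all fold changes were negative.

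Families and partners of the genes were read from lists chosen with earlier results of these data known, and their counts stand beside the 32.5% of all genes that passed in either direction. Of 10 genes that make or bind the selectin ligand of Selplg, 7 were tested. Tpst1, a tyrosine sulfotransferase, rose by 1.13 ± 0.17 (adjusted p = 0.00261), Fut4, a fucosyltransferase, by 0.99 ± 0.29 (0.0273), and Gcnt1, which starts the branched O-glycan, was at -1.17 ± 0.19 (0.00305). The 3 that passed of 7 are near that share.

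Of 11 cathepsins, most of them cysteine proteases and so of the class that cystatin C inhibits, 10 were tested, and 3 rose and 2 fell. Ctsa and Ctsd, which are not cysteine proteases, did not pass (adjusted p = 0.105 and 0.230). Ctsc rose by 1.04 ± 0.24, Ctsh by 0.67 ± 0.14 and Ctss by 0.39 ± 0.12 on the log2 scale, while Ctsl was at -0.81 ± 0.16 and Ctsf at -0.72 ± 0.20. Cstb, the intracellular cystatin B, rose by 0.76 ± 0.21 (adjusted p = 0.0244), and it was 1 of 2 tested among 8 other cystatin genes. Of 19 other adhesion receptors of the family of Adgrg1, 6 were tested. Adgre1 (F4/80) rose by 0.83 ± 0.15 and Adgre5 (CD97) by 1.65 ± 0.36, whereas Adgra3 was at -1.63 ± 0.28 and Adgrl1 at -1.51 ± 0.44. Adgre1 and Adgre5, both receptors of myeloid cells, thus stood opposite to Adgrg1 between the sorts.

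Of 8 other olfactomedin-domain genes 3 were tested and Olfml2b was lower (-1.07 ± 0.21, adjusted p = 0.00607). Of 7 genes of the Sparc family 2 were tested and none passed. Of 7 other crystallins 3 were tested and Crybg3 was lower (-0.93 ± 0.12, adjusted p = 0.00118). Cryba4, the beta-crystallin that lies 3.3 kb from Crybb1 on the other strand, was at 0.13 ± 0.19 (adjusted p = 0.623), so that neither of the neighbouring crystallins passed the test. Neither of 2 other fascins nor 2 relatives of Cd34 had enough UMIs for the test. Of the 50 other protein-coding genes within 100 kb of a gene of the set, 29 were tested, 5 were lower and 5 higher. None of the 6 genes around Cst3 was among the 29.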

How the data were processed

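Single-cell RNA-seq libraries were made with a droplet 3' kit, and the deposited files hold whole-number UMI counts per gene and barcode that the authors made with Cell Ranger (3.1.0 in the matrix headers) on mm10. No normalization had been applied to these counts. Barcodes needed 200 genes or more and no more than 10% of UMIs from mitochondrial genes, and no doublet caller was run. Counts were summed per library and given as CPM. Differences were tested with edgeR 4.0.16 (quasi-likelihood, TMM, filterByExpr) over all genes with Benjamini-Hochberg adjustment and a threshold of 0.05. All 8 treated libraries were fitted with no block. The test of GFP+ against GFP- cells had sort as its only term. Those of route and of the interaction used means for sort by route, and those of recipient sex used means for sort by sex. DESeq2 1.42.0 was an alternative. The edgeR comparisons were also run on simulated counts with known changes. The replicate numbers in the labels pair GFP+ and GFP- libraries of the same mouse, and the correlations of their deviations from the group means were 0.20, -0.28, -0.33 and 0.01. Cells were thinned to 500 UMIs for shares. Single shares have exact binomial 95% intervals, and floors are 3 counts, both for counting error only. Gene positions are from GENCODE vM21.

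Named were the 10 genes, the called genes of their families, ligands and targets, coding genes within 100 kb as counts, the 5 genes most like the set, and each gene's closest in the set. The members and lists were chosen with earlier results of these data known. The libraries of each sort came from 4 separate mice, 1 per sex and route, and both sorts came from the same mice. Fits without a block treated the GFP+ and GFP- library of a mouse as independent. For the sorts, p-values measure the spread between the 4 libraries of each sort. For route and the interaction, they measure the spread of female and male libraries within each sort and route, pooled over both sorts. For recipient sex, they measure the spread across routes within each sort and sex, pooled likewise.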

Additional observations from a re-analysis of the deposited data

Results flagged for a closer look

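Crybb1 in the i.v. male GFP- library, at 180 CPM, stood farther from the other 3 GFP- libraries (146 to 151 CPM) than their spread allows by Dixon's criterion, which chance meets in about 1 of 20 groups tested. Its distance from the nearest library, as a share of the range of the 4, was 0.832. The effect of GFP status on Cd34 differed between the routes, with an interaction of -1.52 on the log2 scale (edgeR, adjusted p = 0.0493). In plain CPM the GFP+ over GFP- ratio of Cd34 was 0.826 and 0.396 in the i.c.v. mice and 0.161 and 0.187 in the i.v. mice. The interaction missed the threshold in 11 of its 17 alternatives, with adjusted p values from 0.00121 to 0.252 over all of them.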

How the results depend on the processing

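In the comparison of GFP+ with GFP- cells, Tmem119, Selplg, Adgrg1, Ecscr and Fscn1 were lower in GFP+ cells and past the threshold in all 19 alternatives. The number of genes called was 7 to 9 when single libraries were left out, 5 in i.c.v. mice alone, and 8 as reported. Crybb1 changed direction in i.c.v. mice alone (0.47) and without either i.v. GFP+ library, in each case without passing, and ranged from -0.85 to 0.074 over single libraries left out. For i.v. against i.c.v. in GFP+ cells, 2 genes were called as reported, 5 by DESeq2 and 5 with no filter on low counts, 1 with cells thinned to 500 UMIs, 1 with GFP+ libraries fitted alone, and 0 to 2 without single libraries. For the interaction, 1 was called as reported, 0 with all deposited barcodes, with stricter limits on cells (500 genes, 5% mitochondrial UMIs), without cells of other types and with cells thinned to 500 UMIs, 5 by DESeq2 and 5 with no filter, 2 with the replicate block of the mouse, and 0 to 2 without single libraries. Cst3 changed direction in the interaction when cells were thinned (0.11), without passing. The block changed 1 other call, that of Olfml3 between the sorts (adjusted p = 0.0542). The causes were not tested.

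Genes detected per cell depended on depth. They were 2.90 in GFP+ and 4.31 in GFP- cells at each cell's own depth, 2.13 and 3.83 at 1000 UMIs, and 0.624 and 2.00 without Cst3. Shares with at least 3 were 46.2% and 84.2%, 31.7% and 77.1%, and 3.94% and 33.9% in the same order. The pair ratio was 1.86 and 1.20 at own depth, and 1.61 and 1.15 without Cst3. At 500 UMIs, Ecscr, Cd34 and Fscn1 were found in under 3% of GFP+ cells, which limits what can be said of single cells.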
